A study of Drosophila melanogaster with 12 samples.

Results

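The genes described here make, store and break down fat in *Drosophila*: *ACC*, *FASN1*, *FASN2* and *Desat1* in fatty acid synthesis, *Lpin* and *mdy* in glycerolipid assembly, the lipases *bmm* and *Hsl*, and the transcription factors *SREBP* and *Hnf4*. They were chosen by symbol and are 10 of the 14162 genes in the count table. All 10 passed the filter on low counts, which kept 10577 genes for testing.

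RNA-seq of polyA RNA from fly heads was performed on 4 groups of 3 samples. AD + Yip7 flies (labelled nSyb>Abeta42+yip7) expressed human Aβ42 together with the serine protease Yip7, and AD + Yip7ΔS flies (nSyb>Abeta42+yip7_S) expressed Aβ42 with a Yip7 that lacks its putative transmembrane domain. AD flies (nSyb>Abeta42) expressed Aβ42 alone, and Control flies (nSyb>w1118) carried the driver with no UAS transgene. In all groups the driver was nSyb-Gal4, which is active in neurons throughout the nervous system, and Aβ42 was the secreted Arctic form in all 3 groups that expressed it. The flies were mated females kept at 29 °C and aged 10 days, but one Control sample (the third) is labelled as coming from flies of 2 weeks. Both Yip7 transgenes were tagged with HA and inserted at the same site. The groups therefore differ in the number of UAS transgenes as well as in the expressed proteins. The labels name heads as the tissue but also speak of dissected brains, and the markers below include eye, fat body and muscle genes at high levels.

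Fatty acids are built from acetyl-CoA by acetyl-CoA carboxylase and fatty acid synthase, receive a double bond from a desaturase, and are joined to glycerol to give triglycerides that are stored in lipid droplets. Lipases at the droplet surface release the fatty acids again, which are then burned in mitochondria by beta-oxidation. In flies most of this takes place in the fat body, a tissue that combines the roles of liver and adipose tissue and that is also present in the head, while glia and neurons hold smaller stores.

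The 12 samples held between 38064884 and 41737332 counts, so 3 counts correspond to at most 0.0795 CPM (counts scaled to the sample's total, with edgeR's TMM factors). As a check of the labels, *yip7* had 144 ± 26.4 CPM in AD + Yip7, 81.0 ± 7.20 CPM in AD + Yip7ΔS, 137 ± 36.7 CPM in AD and 4.01 ± 3.47 CPM in Control (SD, n = 3 each). The count of *yip7* thus did not set the samples labelled with a *yip7* transgene apart from AD. The *w* gene, a marker of UAS insertions, had 215 ± 5.64 CPM in AD + Yip7, 183 ± 1.57 CPM in AD + Yip7ΔS, 120 ± 17.7 CPM in AD and 111 ± 3.40 CPM in Control. Markers of other tissues also moved with the groups. The summed level of 8 fat body markers lay between 109500 and 126700 CPM in AD + Yip7, 94700 and 98470 CPM in AD + Yip7ΔS, 76350 and 80650 CPM in AD, and 97370 and 107000 CPM in Control, most of it from the yolk protein genes. The larval serum protein gene *Lsp2* among them had 164 ± 208 CPM in AD + Yip7, 134 ± 47.4 CPM in AD + Yip7ΔS, 16.9 ± 4.95 CPM in AD and 716 ± 106 CPM in Control. The sum of 9 gut protease and digestion markers, of which 3 were at 0 in all Control samples, lay between 76.3 and 415 CPM in AD + Yip7, 44.5 and 260 CPM in AD + Yip7ΔS, 670 and 973 CPM in AD, and 8.95 and 80.4 CPM in Control. The sum of 6 glial markers lay between 1379 and 1670 CPM in AD + Yip7, 1443 and 1617 CPM in AD + Yip7ΔS, 1323 and 1335 CPM in AD, and 1623 and 1902 CPM in Control. The sum of 5 neuronal markers lay between 2161 and 2434 CPM in AD + Yip7, 1960 and 2317 CPM in AD + Yip7ΔS, 1640 and 2186 CPM in AD, and 2635 and 2815 CPM in Control. The sum of 6 muscle markers lay between 2151 and 2758 CPM in AD + Yip7, 1731 and 2095 CPM in AD + Yip7ΔS, 2440 and 2616 CPM in AD, and 2689 and 3163 CPM in Control. The sum of 4 hemocyte markers lay between 129 and 216 CPM in AD + Yip7, 204 and 242 CPM in AD + Yip7ΔS, 134 and 164 CPM in AD, and 205 and 394 CPM in Control. Photoreceptor markers summed to at least 52110 CPM in every sample, and AD and Control overlapped in that sum. The 4 oenocyte markers summed to at most 6.28 CPM in any sample. Bulk samples cannot tell fewer cells of a type from less RNA per cell.

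The levels of the 10 genes spanned more than 3 orders of magnitude in Control heads. Per kilobase of exon, *Desat1* had 969 CPM and stood at the 99.2 percentile of the 10559 tested genes with a known length. *FASN1* followed with 370 CPM per kilobase and *ACC* with 123. *Lpin* and *SREBP* had 79.7 and 72.3 CPM per kilobase, *mdy* and *bmm* 43.4 and 34.9, and *Hnf4* and *Hsl* 21.1 and 14.4. *FASN2* had 0.443 CPM per kilobase, at the 9.82 percentile. The 2 fatty acid synthase genes lie in tandem on the plus strand of chromosome 2L with 454 bases between them, *FASN2* at chr2L:3043947-3056143 and *FASN1* at chr2L:3056598-3068177 (build dm6, as for all positions here).

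The first comparison asks what Aβ42 in neurons does to these genes, by setting AD against Control. *SREBP* and *bmm* were higher in AD, by 1.66-fold and 1.64-fold, and *FASN1* and *mdy* were lower, at 0.557-fold and 0.626-fold of Control. The other 6 genes did not pass the adjusted p-value threshold of 0.05. The share of all tested genes called in this comparison was 26.0% in either direction, 14.4% higher and 11.6% lower, beside 4 of the 10 genes here, 2 higher and 2 lower. Samples of AD and Control did not overlap for 6 of the 10 genes and for 44.0% of all genes. The median log2 fold change was -0.15 over the 10 genes and -0.01 over all genes. All adjusted p-values were computed by edgeR (quasi-likelihood) and adjusted over all tested genes after Benjamini and Hochberg. They weigh each difference against the spread between these samples. The paper describes biological triplicates of several fly heads each, while the labels do not say how the samples were collected.

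*FASN1*, which encodes the main fatty acid synthase, had 1831, 1842 and 1730 CPM in AD, against 2717, 3241 and 3736 CPM in Control. Every AD sample was below every Control sample, and the AD samples lay close together. The log2 fold change was -0.84 (SE 0.19, adjusted p = 0.0065). *FASN2*, known for making cuticular hydrocarbons in oenocytes, had 3.92, 2.00 and 2.12 CPM in AD, against 2.86, 4.35 and 3.65 CPM in Control. One AD sample was as high as the Control samples, and the difference did not pass the test (log2 fold change -0.43, SE 0.29, adjusted p = 0.29). 

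*ACC* (chr2R:7974115-7991862, minus strand), which makes the malonyl-CoA that fatty acid synthase uses, had 921, 887 and 837 CPM in AD, against 903, 1176 and 1262 CPM in Control. The first Control sample lay among the AD samples, and the difference of -0.34 on the log2 scale was not called (SE 0.16, adjusted p = 0.14). *Desat1* (chr3R:12439600-12447616, plus strand), the stearoyl-CoA desaturase, had 3184, 2713 and 2723 CPM in AD, against 2721, 2250 and 2261 CPM in Control. The groups overlapped narrowly, and the log2 fold change of 0.25 was not called (95% interval -0.13 to 0.64, adjusted p = 0.31). Of *FASN1*, *FASN2*, *ACC* and *Desat1*, then, *FASN1* alone passed the test.

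*mdy* (chr2L:16816660-16826964, plus strand) encodes a diacylglycerol acyltransferase, the enzyme of the last step of triglyceride synthesis. It had 82.8, 65.3 and 70.9 CPM in AD, against 120, 127 and 103 CPM in Control. All AD samples were below all Control samples, and the log2 fold change was -0.67 (SE 0.13, adjusted p = 0.0022). *Lpin* (chr2R:8136986-8156654, minus strand) encodes the phosphatidate phosphatase that makes diacylglycerol, the substrate of the enzyme that *mdy* encodes. It had 483, 446 and 408 CPM in AD, against 394, 452 and 471 CPM in Control, and the log2 fold change was 0.02 (95% interval -0.31 to 0.35, adjusted p = 0.94). The samples of both groups were interleaved. *Lpin* shares 600 exonic bases with *kermit*, whose count was at most 1.6% of that of *Lpin* in any sample.

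*bmm* (chr3L:14776496-14786412, minus strand), the fly counterpart of adipose triglyceride lipase, had 146, 135 and 138 CPM in AD, against 93.5, 96.6 and 64.9 CPM in Control. The groups did not overlap, with the Control sample labelled 2 weeks old the lowest of all, and the log2 fold change was 0.71 (SE 0.15, adjusted p = 0.0039). *Hsl* (chr2R:20257650-20261726, plus strand), the hormone-sensitive lipase, had 68.3, 65.5 and 61.5 CPM in AD, against 57.4, 54.4 and 54.0 CPM in Control. The groups did not overlap, but the log2 fold change of 0.24 did not pass the test (SE 0.09, adjusted p = 0.062). It passed under 4 of 14 alternatives, whose adjusted p-values ran between 0.020 and 0.18. 

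*SREBP* (chr3L:19793935-19798979, plus strand) encodes the sterol regulatory element binding protein, a membrane-bound factor that, once cleaved, switches on genes of fatty acid synthesis. It had 512, 450 and 497 CPM in AD, against 271, 311 and 298 CPM in Control. Every AD sample was well above every Control sample, and the log2 fold change of 0.73 had the smallest adjusted p-value of the 10 genes (SE 0.10, adjusted p = 0.00020). The factor's transcript and that of *FASN1* thus moved in opposite directions in AD. *SREBP* overlaps *CG14102* on the other strand by 5 exonic bases, and the count of that gene was at most 4.45% of that of *SREBP* in any sample. *Hnf4* (chr2L:8687226-8709611, minus strand), a nuclear receptor that in flies drives fat breakdown and glucose-dependent insulin release, had 94.95, 96.8 and 80.4 CPM in AD, against 110, 107 and 123 CPM in Control. AD was lower without overlap, and the log2 fold change of -0.32 just missed the threshold (SE 0.11, adjusted p = 0.055). It passed under 2 of 14 alternatives, both with DESeq2, and the adjusted p-values ran between 0.032 and 0.20. The calls of *SREBP*, *bmm*, *FASN1* and *mdy* held under the 14 alternatives of tool, scaling, filter, block and left-out sample, while an added 2-fold threshold left 0 of the 10 genes called. *Hnf4* also shares 180 exonic bases with an antisense RNA gene, which was not analysed here, and the strand setting of the counting is not known. The summed levels of fat body, glial, neuronal, muscle and hemocyte markers were lower in AD than in Control without overlap and that of gut markers was higher, and their part in these differences was not tested.

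**Figure D1:**
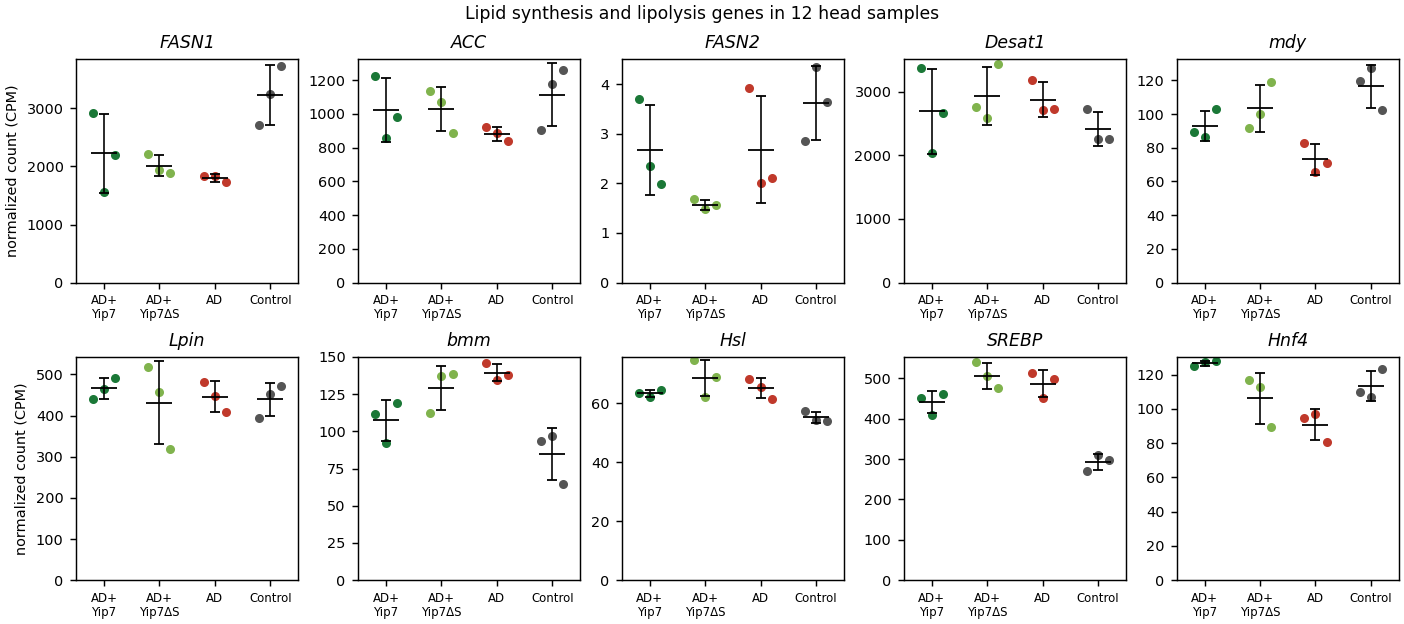
Normalized counts (CPM) of the 10 genes in each of the 12 samples; points are samples, the horizontal bar is the group mean and the error bar its SD (n = 3 each), and each panel has its own axis that starts at 0. The AD samples of *SREBP* (450 to 512 CPM) and *bmm* (135 to 146 CPM) lie above all Control samples, and those of *FASN1* (1730 to 1842 CPM) and *mdy* (65.3 to 82.8 CPM) below them.

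The second comparison asks whether Yip7 alters these genes in AD flies. Of the 10 genes 0 were called by edgeR in AD + Yip7 vs. AD, where 1.81% of all tested genes were called, and 1 was called by DESeq2. *Hnf4*, *mdy* and *bmm*, 3 of the 10, had an unadjusted p-value under 0.05 with edgeR, as had 13.1% of all tested genes, and for the same 3 genes the samples of the groups did not overlap, as for 20.8% of all genes. For each of them the value in AD + Yip7 lay on the Control side of the value in AD, and both comparisons use the same AD samples.

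*Hnf4* had 125, 127 and 128 CPM in AD + Yip7, against 94.95, 96.8 and 80.4 CPM in AD. The AD + Yip7 samples agreed closely with each other and were above all samples of the other groups. The log2 fold change of 0.48 missed the threshold (SE 0.11, unadjusted p = 0.0010, adjusted p = 0.054). It passed with DESeq2 on all 12 samples (adjusted p = 0.0049) and on the 6 samples of the comparison (adjusted p = 0.0019), and the adjusted p-values of the 14 alternatives reached 0.16. *mdy* had 89.5, 86.4 and 103 CPM in AD + Yip7, against 82.8, 65.3 and 70.9 CPM in AD (log2 fold change 0.35, SE 0.13, adjusted p = 0.25). *bmm* had 111, 92.2 and 119 CPM in AD + Yip7, against 146, 135 and 138 CPM in AD (log2 fold change -0.38, SE 0.15, adjusted p = 0.29). Neither *mdy* nor *bmm* passed under any of the 14 alternatives.

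The AD + Yip7 samples of the synthesis genes were far apart. *FASN1* had 2923, 1563 and 2190 CPM in AD + Yip7, so that one sample was below and 2 were above all AD samples. The log2 fold change of 0.31 was not called (95% interval -0.11 to 0.72, adjusted p = 0.56). *ACC* had 1226, 855 and 983 CPM in AD + Yip7, with the same order of the 3 samples as *FASN1*, and a log2 fold change of 0.21 (95% interval -0.13 to 0.55, adjusted p = 0.65). *Desat1* had 3368, 2035 and 2661 CPM in AD + Yip7, again in that order of samples, and a log2 fold change of -0.10 (95% interval -0.48 to 0.29, adjusted p = 0.88). The coefficient of variation of *FASN1* was 30.6% in AD + Yip7, 8.84% in AD + Yip7ΔS, 3.43% in AD and 15.8% in Control. *SREBP* had 452, 409 and 460 CPM in AD + Yip7, which overlapped the AD samples (log2 fold change -0.14, 95% interval -0.36 to 0.07, adjusted p = 0.61). The intervals of *FASN2* (-0.63 to 0.63), *Lpin* (-0.26 to 0.39) and *Hsl* (-0.23 to 0.15) included 0 as well.

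In AD + Yip7ΔS vs. AD, again 0 of the 10 genes were called by edgeR, beside 1.85% of all tested genes, and 1 was called by DESeq2 on all 12 samples. *mdy* and *FASN2*, 2 of the 10, had an unadjusted p-value under 0.05, as had 15.1% of all tested genes, and 3 genes did not overlap between the groups (*FASN1*, *FASN2* and *mdy*), as did 18.0% of all genes. *mdy* had 91.6, 100 and 119 CPM in AD + Yip7ΔS, all above the AD samples, with a log2 fold change of 0.50 (SE 0.13, adjusted p = 0.071). It passed under 1 of 14 alternatives, DESeq2 on all 12 samples (adjusted p = 0.012), while the adjusted p-values of the others reached 0.22. *FASN2* had 1.68, 1.48 and 1.56 CPM in AD + Yip7ΔS, below all AD samples, but its difference of -0.77 on the log2 scale was not called (SE 0.30, adjusted p = 0.24). *FASN1* had 2217, 1937 and 1886 CPM in AD + Yip7ΔS, narrowly above the AD samples (log2 fold change 0.16, 95% interval -0.25 to 0.57, adjusted p = 0.76). *SREBP* had 540, 504 and 476 CPM in AD + Yip7ΔS, which overlapped the AD samples (log2 fold change 0.06, 95% interval -0.15 to 0.27). The AD + Yip7 and AD + Yip7ΔS comparisons share the AD samples, so they do not stand as separate evidence of *mdy* being higher.

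**Figure D2:**
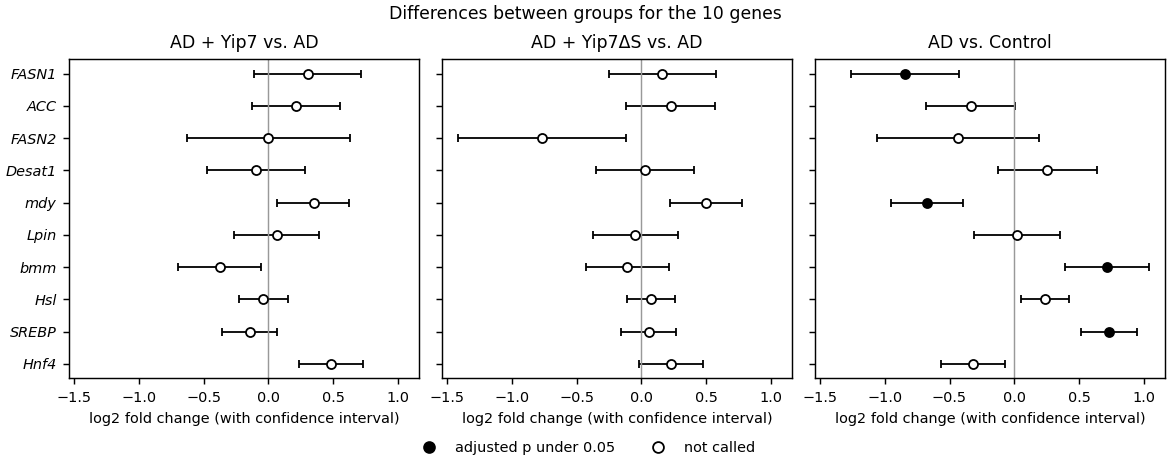
Log2 fold changes of the 10 genes with 95% intervals from edgeR's quasi-likelihood fit, for AD + Yip7 vs. AD, AD + Yip7ΔS vs. AD, and AD vs. Control; filled points have an adjusted p-value under 0.05. In AD vs. Control 4 points are filled (*FASN1*, *mdy*, *bmm* and *SREBP*), and in the comparisons with AD none are.

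The direct comparison of both proteases, AD + Yip7 vs. AD + Yip7ΔS, called 0 of the 10 genes with edgeR or with DESeq2, and 0.0662% of all tested genes with edgeR. *FASN2* and *Hnf4*, 2 of the 10, had an unadjusted p-value under 0.05, as had 10.3% of all tested genes. *FASN2* was higher in every AD + Yip7 sample (3.71, 2.35 and 1.98 CPM) than in any AD + Yip7ΔS sample (log2 fold change 0.77, SE 0.30, adjusted p = 0.43). *Hnf4* had 117, 113 and 89.2 CPM in AD + Yip7ΔS, all below the AD + Yip7 samples, and a log2 fold change of 0.25 (SE 0.11, adjusted p = 0.48). *SREBP* was lower in AD + Yip7 without overlap (log2 fold change -0.20, 95% interval -0.41 to 0.01, adjusted p = 0.51). A difference of *Hnf4* between the 2 proteases was thus not shown by these samples. The paper lists *Hnf4* among genes lowered by Aβ42 and significantly induced by Yip7 but not by Yip7ΔS. That criterion sets each protease against AD and not against the other.

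Set against Control, which carried no UAS transgene, *SREBP* was higher in both. In AD + Yip7 vs. Control 1 of the 10 genes was called, beside 14.6% of all tested genes (9.13% higher, 5.44% lower). This was *SREBP*, with a log2 fold change of 0.59 (SE 0.10, adjusted p = 0.0015), a call that held under the same 14 alternatives but not with an added 2-fold threshold, which left 0 of the 10 genes called. *FASN1* had a log2 fold change of -0.54 (SE 0.19, adjusted p = 0.081). It passed under 3 of 14 alternatives. These were DESeq2 on all 12 samples (adjusted p = 0.023), DESeq2 on the 6 samples (adjusted p = 0.034) and leaving out the first AD + Yip7 sample, which had 2923 CPM (log2 fold change -0.79, adjusted p = 0.014). The adjusted p-values of the 14 alternatives reached 0.27. The log2 fold changes of *mdy* and *bmm* were -0.33 (SE 0.13, adjusted p = 0.11) and 0.34 (SE 0.15, adjusted p = 0.16). DESeq2 on the 6 samples called *mdy* (adjusted p = 0.022), and the adjusted p-values of its 14 alternatives reached 0.31. *Hnf4* was above all Control samples in AD + Yip7, but the log2 fold change of 0.16 was not called (95% interval -0.09 to 0.41, adjusted p = 0.39).

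In AD + Yip7ΔS vs. Control 5 of the 10 genes were called, 3 higher and 2 lower, beside 18.9% of all tested genes (10.9% higher, 7.94% lower). *SREBP* rose by 0.79 on the log2 scale (SE 0.10, adjusted p = 0.00014) and *bmm* by 0.61 (SE 0.15, adjusted p = 0.013). *bmm* had 112, 137 and 138 CPM in AD + Yip7ΔS, all above the Control samples, and both calls held under the 14 alternatives named above. With an added 2-fold threshold 1 of the 10 genes, *FASN2*, remained called. *Hsl* had 74.5, 62.1 and 68.8 CPM in AD + Yip7ΔS and rose by 0.31 (SE 0.09, adjusted p = 0.025). *FASN2* fell by 1.20 on the log2 scale (SE 0.30, adjusted p = 0.014) and *FASN1* fell by 0.68 (SE 0.19, adjusted p = 0.025). The last 3 calls depended on single samples. *FASN1* was lost without Control sample 2 or 3 or AD + Yip7ΔS sample 2 or 3, with adjusted p-values of 0.061, 0.10, 0.071 and 0.066. *FASN2* was lost without the second Control sample (adjusted p = 0.054). *Hsl* was lost without Control sample 2 or 3 or the first AD + Yip7ΔS sample (adjusted p = 0.084, 0.094 and 0.094), and with edgeR on the 6 samples alone (adjusted p = 0.070). *mdy*, called in AD vs. Control, had a log2 fold change of -0.17 here (95% interval -0.45 to 0.11, adjusted p = 0.39).

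The remaining values of the AD + Yip7ΔS group were within the range of the other groups or close to it, except for the third sample of *Lpin*. That sample had 320 CPM, below every sample of the other groups (lowest 394 CPM, in Control). *ACC* had 1136, 1071 and 885 CPM in AD + Yip7ΔS, *Desat1* 2762, 2587 and 3439 CPM, and *Lpin* 517, 457 and 320 CPM. *Lpin* averaged 466 ± 25.5 CPM in AD + Yip7, 431 ± 101 CPM in AD + Yip7ΔS, 446 ± 37.4 CPM in AD and 439 ± 40.4 CPM in Control (SD, n = 3 each), and *Lpin*, *ACC* and *Desat1* were not called in any of the 6 comparisons. *Hsl* had 63.3, 62.2 and 64.5 CPM in AD + Yip7, a spread narrower than in any other group.

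Over the 4 groups the order of the levels differed from gene to gene. *SREBP* averaged 440 ± 27.3 CPM in AD + Yip7, 507 ± 32.2 CPM in AD + Yip7ΔS, 487 ± 32.5 CPM in AD and 293 ± 20.2 CPM in Control (SD, n = 3 each). Control stood apart at the low end, and no pair of the other 3 groups was called by edgeR. *bmm* averaged 107 ± 13.8 CPM in AD + Yip7, 129 ± 14.8 CPM in AD + Yip7ΔS, 140 ± 5.98 CPM in AD and 85.0 ± 17.5 CPM in Control, so that AD + Yip7 came next to Control and was not called by edgeR against either Control or AD. *FASN1* averaged 2225 ± 681 CPM in AD + Yip7, 2013 ± 178 CPM in AD + Yip7ΔS, 1801 ± 61.8 CPM in AD and 3231 ± 510 CPM in Control, with Control at the high end. *mdy* averaged 93.0 ± 8.81 CPM in AD + Yip7, 103 ± 13.9 CPM in AD + Yip7ΔS, 73.0 ± 8.91 CPM in AD and 117 ± 12.8 CPM in Control. Both Yip7 groups of *mdy* lay between AD and Control and passed edgeR's test against neither, while DESeq2 called AD + Yip7ΔS vs. AD and, on 6 samples, AD + Yip7 vs. Control, as given above. *Hnf4* averaged 127 ± 1.45 CPM in AD + Yip7, 106 ± 14.9 CPM in AD + Yip7ΔS, 90.7 ± 8.99 CPM in AD and 113 ± 8.88 CPM in Control, and no pair of groups was called by edgeR, while DESeq2 called AD + Yip7 vs. AD and AD vs. Control, as given above.

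The genes around the 10 in lipid metabolism were counted in 6 lists. Of all tested genes 14.4% were called higher and 11.6% lower in AD vs. Control. In AD vs. Control the list for fatty acid synthesis and precursor supply had 0 genes higher and 6 lower of 9 tested, with a median log2 fold change of -0.54. At an unadjusted p-value under 0.05 there were also 0 higher, as with DESeq2. *Men*, the malic enzyme that supplies NADPH for fatty acid synthesis, had 289, 313 and 379 CPM in AD, against 863, 852 and 979 CPM in Control (log2 fold change -1.46, SE 0.13, adjusted p = 6.68e-06). *AcCoAS*, which makes acetyl-CoA from acetate, fell by 0.92 on the log2 scale (SE 0.13, adjusted p = 0.00026), and the second malic enzyme gene *Men-b* fell by 0.58 (SE 0.08, adjusted p = 0.00015). *ATPCL*, the ATP citrate lyase that feeds cytosolic acetyl-CoA to *ACC*, had a log2 fold change of 0.01 (SE 0.13, adjusted p = 0.97).

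The list of acyl-CoA and glycerolipid synthesis had 1 gene higher and 5 lower of 16, beside 14.4% and 11.6% of all genes. Its median was -0.15. *Gpdh1*, which makes glycerol 3-phosphate for the glycerol backbone, fell by 1.04 (SE 0.11, adjusted p = 2.49e-05), the long-chain acyl-CoA synthetase gene *Acsl* fell by 0.54 (SE 0.12, adjusted p = 0.0063) and the ethanolamine kinase gene *eas* fell by 0.41 (SE 0.10, adjusted p = 0.0072). The glycerol-3-phosphate acyltransferase gene *mino* rose by 0.56 (SE 0.12, adjusted p = 0.0047).

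The list of lipid droplets and lipases had 1 gene higher and 5 lower of 14, beside 14.4% and 11.6% of all genes. Its median was -0.25. *Lsd-1*, which encodes a perilipin of the droplet surface, had 181, 172 and 144 CPM in AD, against 445, 473 and 431 CPM in Control (log2 fold change -1.44, SE 0.10, adjusted p = 1.22e-06). The second perilipin gene *Lsd-2* fell by 0.71 (SE 0.11, adjusted p = 0.00047). *Jabba*, a droplet protein that holds histones in the embryo, had 159, 152 and 178 CPM in AD, against 434, 436 and 396 CPM in Control (log2 fold change -1.37, SE 0.11, adjusted p = 2.51e-06). *puml*, a droplet-associated homologue of the lipase co-activator CGI-58, rose by 0.41 (SE 0.10, adjusted p = 0.0096). The lipase gene *bmm* was thus higher and the perilipin genes lower in the same samples.

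Beta-oxidation had 0 genes higher and 14 lower of 24, with a median of -0.42, beside 14.4% and 11.6% of all genes. At an unadjusted p-value under 0.05, 1 gene was higher and 19 were lower, and DESeq2 called 0 higher and 14 lower. Of all 10577 tested genes 4064 had an unadjusted p-value under 0.05 in either direction, and DESeq2 on all 12 samples called 3232 genes. *Mtpalpha*, the alpha subunit of the mitochondrial trifunctional protein, had 148, 162 and 173 CPM in AD, against 259, 302 and 267 CPM in Control (log2 fold change -0.78, SE 0.12, adjusted p = 0.00059). *Etf-QO*, which passes electrons from fatty acid oxidation to ubiquinone, fell by 0.80 (SE 0.11, adjusted p = 0.00025), and the hydroxyacyl-CoA dehydrogenase gene *scu* fell by 0.67 (SE 0.11, adjusted p = 0.0010). Among elongases and desaturases 20 of the 29 listed genes that the count table holds passed the filter on low counts, and 3 of these were called higher and 1 lower. The 3 higher ones, *Elo68alpha*, *Elo68beta* and *CG15531*, had between 0 and 15 counts in each Control sample and passed the filter through the groups that expressed Aβ42, so their number is not read as a result. The lower one, the desaturase-family gene *CG8630*, fell by 0.84 (SE 0.11, adjusted p = 0.00017).

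Of 16 regulators 2 were higher and 4 lower, with a median of -0.20. *Akh* encodes adipokinetic hormone, the fly counterpart of glucagon in calling fat from stores, and *AkhR* encodes its receptor in the fat body. *Akh* had 37.5, 52.3 and 40.3 CPM in AD, against 18.7, 8.67 and 3.96 CPM in Control (log2 fold change 2.06, SE 0.44, adjusted p = 0.0042). *AkhR* had 52.1, 54.0 and 50.4 CPM in AD, against 151, 134 and 122 CPM in Control (log2 fold change -1.38, SE 0.10, adjusted p = 1.09e-06). The transcripts of hormone and receptor thus went opposite ways without overlap. Gut markers of the same samples summed to between 670 and 973 CPM in AD and between 8.95 and 80.4 CPM in Control. The part of tissue carried along with the heads in the *Akh* difference was not tested. *sug*, a sugar-responsive zinc finger factor, fell by 1.93 (SE 0.32, adjusted p = 0.00085), and *S1P*, the protease that cleaves SREBP, fell by 0.44 (SE 0.10, adjusted p = 0.0061). *Mondo*, which encodes a sugar-sensing transcription factor, rose by 0.32 (SE 0.10, adjusted p = 0.033). This call was lost without any 1 of the 3 Control samples or without the first AD sample (adjusted p between 0.058 and 0.11). Across all 6 lists 7 genes, *Elo68alpha*, *Elo68beta* and *CG15531* among them, were called higher and 35 lower of 99 tested. These calls in AD vs. Control stand beside 14.4% and 11.6% of all genes. Without the Control sample labelled 2 weeks old, 5 were called higher and 32 lower. Leaving out any 1 sample lowered the number of all genes called from 2750 to between 1910 and 2635. Of the 8 fat body markers 1 was called higher (*Fbp2*) and 3 lower (*Lsp2*, *apolpp* and *Yp2*), with a median log2 fold change of -0.50 over all 8. *Fbp2* had between 0 and 2 counts in each Control sample and 11, 12 and 20 in AD. It passed the filter on low counts through groups that expressed Aβ42, so its call is not read as a result. *apolpp*, the apolipoprotein of the main lipid carrier in the blood, averaged 4979 ± 528 CPM in AD and 9090 ± 353 CPM in Control (SD, n = 3 each), and *Apoltp*, which encodes a lipid transfer particle protein, had a log2 fold change of 0.07 (adjusted p = 0.76). The part of fat body RNA in the counts of the lists was not tested.

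**Figure D3:**
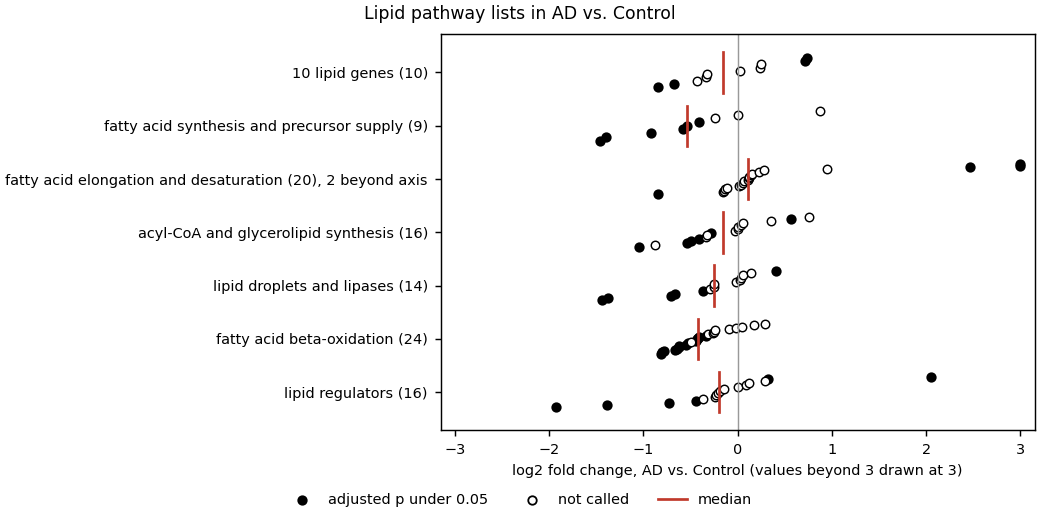
Log2 fold changes in AD vs. Control of the 10 genes and of the 6 lists around them, 1 point per tested gene (number in brackets), with filled points for an adjusted p-value under 0.05 and a red line at each list's median; *Elo68alpha* and *Elo68beta* lie beyond the axis and are drawn at its edge. Beta-oxidation has 14 filled points on the lower side and none on the higher.

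In AD + Yip7 vs. AD edgeR called 4 genes of these lists, all higher, beside 1.81% of all genes in either direction. DESeq2 on all 12 samples called 6 higher and 1 lower, beside 434 of all genes. *AkhR* had 74.7, 86.8 and 87.8 CPM in AD + Yip7, against 52.1, 54.0 and 50.4 CPM in AD (log2 fold change 0.67, SE 0.10, adjusted p = 0.0037). *Jabba* had 243, 258 and 268 CPM in AD + Yip7, against 159, 152 and 178 CPM in AD (log2 fold change 0.65, SE 0.11, adjusted p = 0.0080). *CG5162*, a predicted lipase gene, rose by 0.70 (SE 0.13, adjusted p = 0.013), and *CG8630* rose by 0.50 (SE 0.11, adjusted p = 0.045). The call of *CG8630* was lost on leaving out any 1 of the 6 samples (adjusted p between 0.076 and 0.19), and that of *CG5162* without AD sample 1 or 3 or the second AD + Yip7 sample (adjusted p = 0.068, 0.052 and 0.058). All 4 genes were also lower in AD than in Control, a comparison that uses the same AD samples. At an unadjusted p-value under 0.05, 18 of the 99 genes of the lists were higher and 2 lower, beside 13.1% of all genes in either direction. Of the 8 fat body markers 3 were called higher in the same samples (*apolpp*, *Yp1* and *Yp2*) and 0 lower, with a median log2 fold change of 0.56. *apolpp* averaged 7470 ± 747 CPM in AD + Yip7 and 4979 ± 528 CPM in AD, and its log2 fold change of 0.59 was called (adjusted p = 0.037). The part of fat body RNA in the 4 calls was not tested.

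In AD + Yip7ΔS vs. AD edgeR called 1 gene of the 6 lists, beside 1.85% of all genes. DESeq2 on all 12 samples called 1 higher and 3 lower, beside 483 of all genes. At an unadjusted p-value under 0.05, 14 were higher and 6 lower, beside 15.1% of all genes in either direction. The gene that edgeR called was *Akh*, with 6.63, 9.03 and 10.2 CPM in AD + Yip7ΔS, against 37.5, 52.3 and 40.3 CPM in AD (log2 fold change -2.33, SE 0.44, adjusted p = 0.020). The call was lost without AD sample 2 or 3 or AD + Yip7ΔS sample 1 or 3 (adjusted p = 0.067, 0.052, 0.091 and 0.056). Summed gut markers were lower in AD + Yip7ΔS than in AD as well, without overlap, and their part in this difference was not tested. AD + Yip7 lay in between, with 17.9, 40.2 and 31.4 CPM of *Akh*, and the difference of 1.80 between AD + Yip7 and AD + Yip7ΔS on the log2 scale was not called (SE 0.44, adjusted p = 0.17). *AkhR* had 60.3, 61.2 and 63.1 CPM in AD + Yip7ΔS. Against Control, beta-oxidation still had 9 genes lower of 24 in AD + Yip7 and 8 in AD + Yip7ΔS, with 0 higher in both, where 5.44% and 7.94% of all genes were called lower. Without the third Control sample these counts were 4 and 7, again with 0 higher. DESeq2 called 15 lower and 1 higher in AD + Yip7 and 11 lower and 0 higher in AD + Yip7ΔS. Of all genes, edgeR called 1541 and 1996 in these comparisons with all samples. Leaving out any 1 sample gave 934 to 1262 and 1363 to 1806, and DESeq2 on all 12 samples gave 1979 and 2448. Beside the 5.44% and 7.94% called lower by edgeR, the list for fatty acid synthesis and precursor supply had 5 genes lower of 9 in each. It had 0 higher by edgeR, by DESeq2 and at an unadjusted p-value under 0.05. Lipid droplets and lipases had 4 lower and 1 higher of 14 in AD + Yip7 and 5 lower and 1 higher in AD + Yip7ΔS. Elongases and desaturases had 5 higher and 0 lower of 20 in AD + Yip7 and 2 higher and 1 lower in AD + Yip7ΔS. The higher ones include *Elo68alpha* and *Elo68beta* in both, which passed the filter through the groups that expressed Aβ42. Across all 6 lists 9 were higher and 23 lower of 99 in AD + Yip7, and 5 higher and 24 lower in AD + Yip7ΔS. Of all genes 9.13% and 10.9% were called higher.

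**Figure D4:**
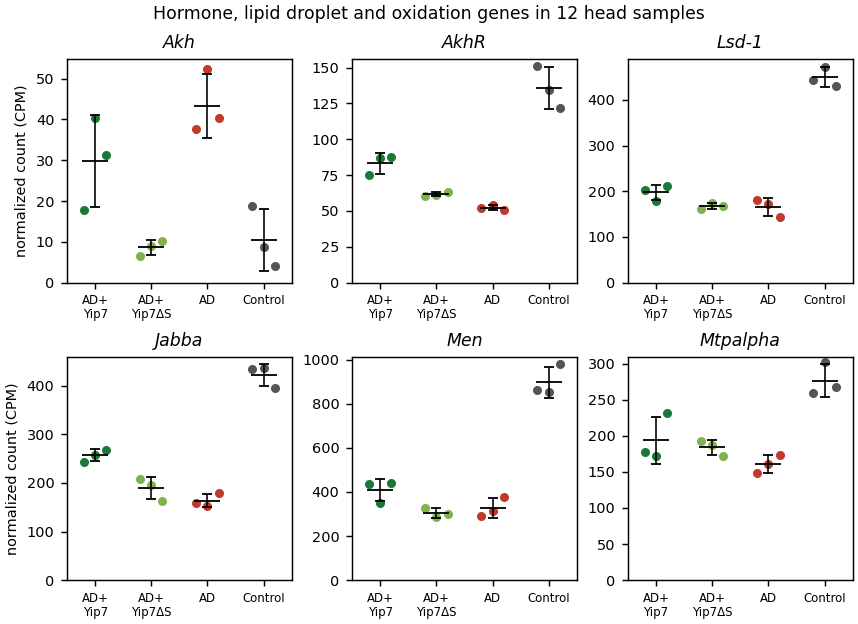
Normalized counts (CPM) of *Akh*, *AkhR*, *Lsd-1*, *Jabba*, *Men* and *Mtpalpha* in the 12 samples, with the group mean (bar) and SD (n = 3 each) on axes that start at 0. *AkhR* lies between 74.7 and 87.8 CPM in AD + Yip7, between 60.3 and 63.1 in AD + Yip7ΔS, between 50.4 and 54.0 in AD and between 122 and 151 in Control, while *Akh* is highest on average in AD.

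The genes closest in pattern were sought among the other 10567 tested genes by Pearson's r of log2 levels over the 12 samples, as a description without a test, since the 12 points share their 4 groups. *SREBP* was nearest to *agt* and *Ote*, with an r of 0.983 for each. *FASN1* was nearest to *PK2-R2* (0.952) and *CG13912* (0.922), *mdy* to *CG33120* (0.951) and *Iris* (0.946), and *bmm* to *lncRNA:CR44809* (0.957) and *Spf45* (0.936). *FASN2* was nearest to *CTCF* (0.925) and *CG43163* (0.869), and *Hsl* to *squ* (0.912) and *CG42464* (0.901). None of these is another of the 10 genes, which were not part of the search.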

How the data were processed

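PolyA RNA from fly heads was sequenced in 12 samples. Per the study's methods, fastp cleaned the reads, HISAT2 placed them and HTSeq-count tallied them, and the authors deposited whole-number counts of 14162 genes with no normalization. The submitters' processing notes also list FastQC, HISAT2 2.1.0, StringTie 1.3.1, DESeq2 1.36.0 and the build dm6. The annotation and the strand setting behind the counts are not given in the sources used here, so reads of overlapping genes may have been shared. The methods of the study and the labels also differ in the library kit and sequencing provider.

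The tests were run with edgeR 4.0.16 under R 4.3.3 (filterByExpr on the 4 groups, TMM, all 12 samples in one fit with glmQLFit and glmQLFTest, no covariates). Benjamini-Hochberg adjustment ran over the 10577 tested genes of each of 6 comparisons, with a threshold of 0.05. Standard errors are the log2 fold change divided by the root of its F statistic. The fit was tested on simulated data. Gene models came from the Ensembl annotation of the same assembly.

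All 10 genes are named. Of 6 pathway lists, those called in AD vs. Control or AD + Yip7 vs. AD are named, up to 3 per list and direction by lowest adjusted p, as are the 2 nearest genes in pattern of each of the 10 that was called at least once. *Akh* in AD + Yip7ΔS, *AkhR* in that group, *ATPCL*, *apolpp*, *Apoltp* and the genes plotted beside the 10 were singled out after their values were seen. The genes and lists were chosen with earlier results of these data known, and *Hnf4* and *AkhR* are among the genes the study named from these samples. Alternatives were other scalings and filters, a 2-fold threshold, DESeq2 1.42.0 on all 12 samples or on the 6 of a comparison, edgeR on those 6, a replicate block and leaving out each sample. Counts of called genes in the lists by DESeq2, at an unadjusted p-value and without the Control sample labelled 2 weeks old were added after seeing the data. The floor of 3 counts covers counting error only.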

Additional observations from a re-analysis of the deposited data

How the results depend on the processing

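Over 14 alternatives for each of the 10 genes in 6 comparisons, 791 of the gene values kept their direction and call, 13 gained a call, 9 lost one and 27 changed sign, all of the last in genes that were not called. A 2-fold threshold left 853 genes called in AD vs. Control, 85 in AD + Yip7 vs. AD, 98 in AD + Yip7ΔS vs. AD, 538 in AD + Yip7 vs. Control and 627 in AD + Yip7ΔS vs. Control, and of the 10 genes 0, 0, 0, 0 and 1. DESeq2 on all 12 samples called 434 genes in AD + Yip7 vs. AD, 483 in AD + Yip7ΔS vs. AD and 132 in AD + Yip7 vs. AD + Yip7ΔS, and of the 10 genes 1 in each comparison with AD and 2 in AD + Yip7 vs. Control. DESeq2 on 6 samples called 493, 360 and 123 genes in the same 3 comparisons and 2554 in AD + Yip7 vs. Control, with 3 of the 10 genes in AD + Yip7 vs. Control and 1 in AD + Yip7 vs. AD. edgeR on 6 samples called 120 genes in AD + Yip7ΔS vs. AD, and no count filter 16 in AD + Yip7 vs. AD + Yip7ΔS. Leaving out one sample gave 83 to 128 genes in AD + Yip7 vs. AD (191 with all samples), 74 to 215 in AD + Yip7ΔS vs. AD (196), 6 to 15 in AD + Yip7 vs. AD + Yip7ΔS (7) and 934 to 1262 in AD + Yip7 vs. Control (1541), and 1 to 2 and 2 to 5 of the 10 genes in AD + Yip7 vs. Control and AD + Yip7ΔS vs. Control. The cause was not tested, beyond fewer samples or a stricter threshold. Log2 fold changes that crossed 0 when one sample was left out ran between -0.0384 and 0.0898 for *Lpin* in AD vs. Control; between -0.32 and 0.38 for *FASN2*, -0.0004 and 0.12 for *Lpin* and -0.31 and 0.07 for *Desat1* in AD + Yip7 vs. AD; between -0.20 and 0.12 for *Lpin* and -0.12 and 0.11 for *Desat1* in AD + Yip7ΔS vs. AD; between -0.10 and 0.34 for *FASN1*, -0.17 and 0.10 for *ACC*, -0.32 and 0.0411 for *Desat1* and -0.0601 and 0.26 for *Lpin* in AD + Yip7 vs. AD + Yip7ΔS; between -0.0428 and 0.32 for *Desat1* in AD + Yip7 vs. Control; and between -0.18 and 0.14 for *Lpin* and -0.17 and 0.0133 for *Hnf4* in AD + Yip7ΔS vs. Control. *FASN2* in AD + Yip7 vs. AD was 2e-04 with DESeq2 on 6 samples, and *Desat1* in AD + Yip7ΔS vs. AD was -0.0198 with upper quartile normalization. That scaling also lowered the share of calls that were higher: 38.2% in AD + Yip7 vs. AD (52.4% with TMM), 32.2% in AD + Yip7ΔS vs. AD (46.9% with TMM). Deviations from the group mean had r between -0.39 and 0.29 for samples with the same replicate number (18 pairs, 5 over 0.1). For different numbers r lay between -0.264 and 0.498 (36 pairs, 11 over 0.1). Within the 3 groups that expressed Aβ42, r lay between -0.018 and 0.29 for the same number and between -0.264 and 0.188 for different numbers. The main fit did not take the number to pair samples. With a replicate block, 2712 genes were called in AD vs. Control, 149 in AD + Yip7 vs. AD, 186 in AD + Yip7ΔS vs. AD and 1930 in AD + Yip7ΔS vs. Control, the 10 genes kept the same number of calls in every comparison, and *FASN2* in AD + Yip7 vs. AD was 0.006.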

Other observations

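Elongase genes with almost no reads in Control were counted in every AD sample. *Elo68alpha*, an elongase known in *Drosophila* for its role in male pheromone synthesis, had 14.5, 14.5 and 15.6 CPM in AD, against 0.373, 0.0483 and 0.240 CPM in Control. It averaged 10.6 ± 1.56 CPM in AD + Yip7 and 13.1 ± 1.02 CPM in AD + Yip7ΔS (SD, n = 3 each). Its neighbour in name *Elo68beta* averaged 2.53 CPM in AD + Yip7, 2.90 CPM in AD + Yip7ΔS and 3.23 CPM in AD, and had no counts in any Control sample. Against the floor of 3 counts in a Control library, these levels are at least 33-fold, 38-fold and 43-fold higher. The desaturase-family gene *CG15531* averaged 0.237 CPM in AD and 0.0404 CPM in Control. All 3 genes passed the filter on low counts through the groups that expressed Aβ42, so their differences from Control are given as levels with no test.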
